A study of Mus musculus with 7 samples.

Results

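Haemoglobin and erythroid transcripts were followed in sorted cardiac type 2 innate lymphoid cells (ILC2s), a population that is not of the red cell lineage. The genes were chosen by name: the adult alpha globins Hba-a1 and Hba-a2, the adult beta globins Hbb-bs and Hbb-bt, Alas2, Slc4a1, Klf1 and Ahsp. Of these 8 names, 7 had a row among the 55335 gene identifiers, and Ahsp is not analysed here. All 7 passed the filter on low counts that left 17015 genes for testing. The 3 naive libraries came from untransplanted mouse hearts, and the 4 allograft libraries from BALB/c hearts carried by C57BL/6 recipients during acute rejection. Hearts were taken 7 days after transplantation, and that time is also the label of the naive libraries. Each library pooled ILC2s of 4 to 7 hearts, sorted as CD45-positive, lineage-negative and ST2-positive cells, so the pool and not the animal was the replicate. No genotype is given, and the strain, sex and age of the naive mice and the antibodies behind the lineage gate are not given in the sources used here. Statistical tests therefore measure the spread between pools.

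Haemoglobin is a tetramer of paired alpha and beta chains, and red cell precursors make both chains in close balance because free alpha chains are unstable. Alas2 encodes the erythroid form of the first enzyme of haem synthesis, Slc4a1 the anion exchanger band 3 of the red cell membrane, and Klf1 the transcription factor that activates the adult beta globin gene through a CACCC motif. Mouse strains differ at the beta locus: C57BL/6 carries the single haplotype with the copies Hbb-bs and Hbb-bt, and BALB/c the diffuse haplotype with a different pair of copies. Reads were assigned to C57BL/6 gene models (build mm10 per the submitters' processing notes), so haplotypes could not be read from the counts.

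The gene pairs were nearly the same in sequence, which bears on how far their counts can be told apart. In the GENCODE M21 transcripts, the coding sequences of Hba-a1 and Hba-a2 were 429 bases long and differed at 1 position, C381T, counted from 1 at the start codon with the base of Hba-a1 first. The coding sequences of Hbb-bs and Hbb-bt were 444 bases long and differed at 1 position, C417T, with the base of Hbb-bs first. Both differences lay at the third position of a codon and left the translation the same. The lines below show 41 coding bases of each copy around the difference, which stands in capitals.
Hba-a1 coding 361-401: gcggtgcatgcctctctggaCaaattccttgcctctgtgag
Hba-a2 coding 361-401: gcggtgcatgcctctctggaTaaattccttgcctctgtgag
Hbb-bs coding 397-437: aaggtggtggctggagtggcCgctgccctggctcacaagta
Hbb-bt coding 397-437: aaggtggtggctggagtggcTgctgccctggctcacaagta
Of the stretches of 50 bases in each transcript, 32.5% were unique among the 4 globin transcripts for Hba-a1, 13.1% for Hba-a2, 34.2% for Hbb-bs and 41.7% for Hbb-bt. The counts of the copies within a pair are therefore uncertain, while alpha and beta coding sequences matched at only 64.4% of 413 aligned bases. How reads that fit both copies were counted is not given in the sources used here.

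The stretches before the 4 start sites are shown because the alpha and beta genes gave different values although they share the same kinds of promoter motif. Each line gives the 150 bases upstream of the RefSeq start in build GRCm38.p6, 5′ to 3′ on the strand of the gene. The GENCODE M21 gene spans given below begin elsewhere. The windows of Hba-a1 and Hbb-bs lie inside those spans, and those of Hba-a2 and Hbb-bt overlap them in part. Capitals mark the CACCC motif, the CCAAT box and the TATAA box, searched on both strands, so that ATTGG reads as the second of these on the opposite strand.
Hba-a1 (chr11:32283522-32283671, plus strand): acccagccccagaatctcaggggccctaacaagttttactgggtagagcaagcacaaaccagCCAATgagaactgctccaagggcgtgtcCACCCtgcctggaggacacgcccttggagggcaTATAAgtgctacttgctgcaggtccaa
Hba-a2 (chr11:32296342-32296491, plus strand): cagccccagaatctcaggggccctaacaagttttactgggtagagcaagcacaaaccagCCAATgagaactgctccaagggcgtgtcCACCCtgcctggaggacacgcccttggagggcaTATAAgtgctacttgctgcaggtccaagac
Hbb-bs (chr7:103827929-103828078, minus strand): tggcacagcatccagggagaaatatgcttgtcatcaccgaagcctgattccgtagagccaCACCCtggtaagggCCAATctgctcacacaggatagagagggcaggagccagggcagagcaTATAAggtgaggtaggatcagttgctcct
Hbb-bt (chr7:103813924-103814073, minus strand): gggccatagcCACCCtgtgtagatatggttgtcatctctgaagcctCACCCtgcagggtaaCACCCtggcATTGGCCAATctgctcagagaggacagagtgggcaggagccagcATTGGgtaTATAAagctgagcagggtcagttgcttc
All 4 windows held the 3 motifs, which together occurred in 1.1% of 32851 RefSeq promoter windows of the same length. Singly, CACCC occurred in 37.4%, CCAAT in 24.5% and TATAA in 14.2% of them. The windows of Hba-a1 and Hba-a2 were identical over 147 aligned bases, and those of Hbb-bs and Hbb-bt matched at 74.3% of 148. A match describes the letters and is not a measured binding site.

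Libraries held 29107326 to 53044907 counts, and a count of 0 allows up to 3 counts, or 0.0566 to 0.103 CPM (the count scaled by the total count of the library). These limits and all intervals cover counting error only, since cDNA was amplified and the labels name no molecular identifiers. Naive replicate 2 stood apart from the other 6 libraries. A list of 13 ILC2 genes summed to 1176 CPM there, against 11822 and 15858 CPM in naive replicates 1 and 3 and 11832 to 12519 CPM in the allografts. Mitochondrial transcripts made up 26.5% of its counts, against 2.04% to 3.11% elsewhere. A list of 10 kidney genes summed to 10251 CPM in naive replicate 2, 85.5 CPM in replicate 1, 276 CPM in replicate 3 and 69.9 to 117 CPM in the allografts, and 10 of 10 were detected in replicate 2. A list of 10 endothelial genes summed to 646 CPM there and to 39.02 to 62.8 CPM elsewhere. Every value below is therefore given per library, and each comparison also without naive replicate 2.

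Alpha globin was present in all 7 libraries, whereas beta globin ranged from no count to 27.0% of the globin counts, in the plot of CPM by library. Hba-a1 (ENSMUSG00000069919, chr11:32283511-32284465 in GENCODE M21) had 534, 1196 and 386 CPM in naive replicates 1 to 3. In allograft replicates 1 to 4 it had 360, 376, 307 and 384 CPM. Every allograft library lay below every naive library, but naive replicate 3 (385.8 CPM) and allograft replicate 4 (384.1 CPM) differed by less than the SD of 34.7 CPM among the allografts. The naive mean was 705 ± 431 CPM (SD, n = 3), and the allograft mean 357 ± 34.7 CPM (SD, n = 4). The log2 fold change of allograft over naive was -1.35 (SE 0.541) with an edgeR adjusted p of 0.440. Without naive replicate 2 it was -0.41 (SE 0.208, adjusted p = 0.326).

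**Figure D1:**
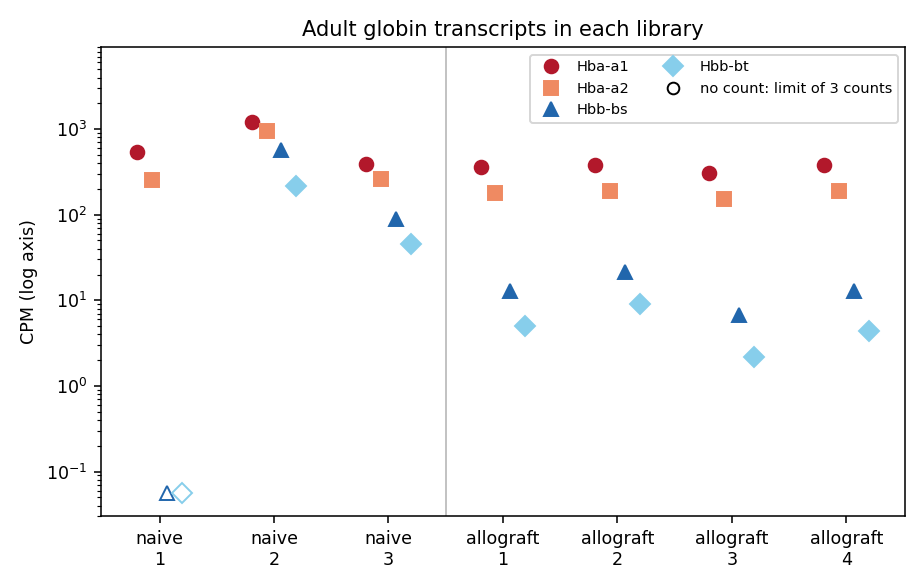
CPM (log axis) of the 4 adult globin genes in the 3 naive and 4 allograft libraries, 1 point per gene and library. Open symbols stand at the limit of 3 counts where no count was found. The alpha genes lie between 151 and 1196 CPM in every library, while the beta genes have no count in naive replicate 1 and reach 574 and 217 CPM in naive replicate 2.

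The second alpha copy followed the same order of groups. Hba-a2 (ENSMUSG00000069917, chr11:32296489-32297298) had 252, 945.5 and 258 CPM across naive replicates 1 to 3, and 179, 189, 151 and 187 CPM in allograft replicates 1 to 4. The lowest naive library exceeded the highest allograft library by more than the allograft SD of 17.4 CPM. Its log2 fold change was -1.87 (SE 0.639, edgeR adjusted p = 0.341), and -0.58 (SE 0.192, adjusted p = 0.175) without naive replicate 2. The 2 alpha genes were the only ones of the 7 for which every allograft library lay below every naive library. Among all genes tested, 2.15% showed that pattern in CPM, and it held for both alpha genes with TMM-scaled CPM (3.19% of all genes) and with DESeq2 size factors (4.68%).

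The beta genes varied far more among the naive libraries. Hbb-bs (ENSMUSG00000052305, chr7:103826534-103828096) had 0 counts in naive replicate 1, 26098 counts (574 CPM) in replicate 2 and 3831 counts (87.9 CPM) in replicate 3. In allograft replicates 1 to 4 it had 12.7, 21.4, 6.78 and 12.9 CPM. The allografts lay between naive replicate 1 and naive replicate 3, so the groups overlapped. Its log2 fold change was -4.56 (SE 2.03, edgeR adjusted p = 0.514), and -1.79 (SE 1.88, adjusted p = 0.671) without naive replicate 2. Hbb-bt (ENSMUSG00000073940, chr7:103812524-103813996) had 0, 217 and 44.9 CPM across naive replicates 1 to 3, and 5.07, 9.07, 2.15 and 4.43 CPM in allograft replicates 1 to 4. As for Hbb-bs, the allografts lay between naive replicate 1 and naive replicate 3, with a log2 fold change of -4.58 (SE 1.95, edgeR adjusted p = 0.481), and -2.19 (SE 1.92, adjusted p = 0.586) without naive replicate 2.

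The balance of alpha and beta counts differed between libraries by more than counting error. Alpha counts were 41690 in naive replicate 1, where no beta count was found. A count of 0 allows a beta share of up to 0.0072% there, or at least 13897 alpha counts for each beta count. Naive replicate 2 had 27.0% beta among its globin counts (95% Wilson interval 26.7% to 27.2%), and for naive replicate 3 the share was 17.1% (16.7% to 17.5%). In allograft replicates 1 to 4 the beta share was 3.19%, 5.11%, 1.91% and 2.94%. There were thus 2.71 alpha counts for each beta count in naive replicate 2, 4.85 in naive replicate 3 and 18.6 to 51.3 in the allografts. Scaled to gene length as FPKM (fragments scaled by gene length and library size), the ratio was 2.74 and 4.83 in these naive libraries and 18.4 to 51.1 in the allografts. The 3 naive libraries thus held the lowest and the highest beta share, with the 4 allografts between them.

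**Figure D2:**
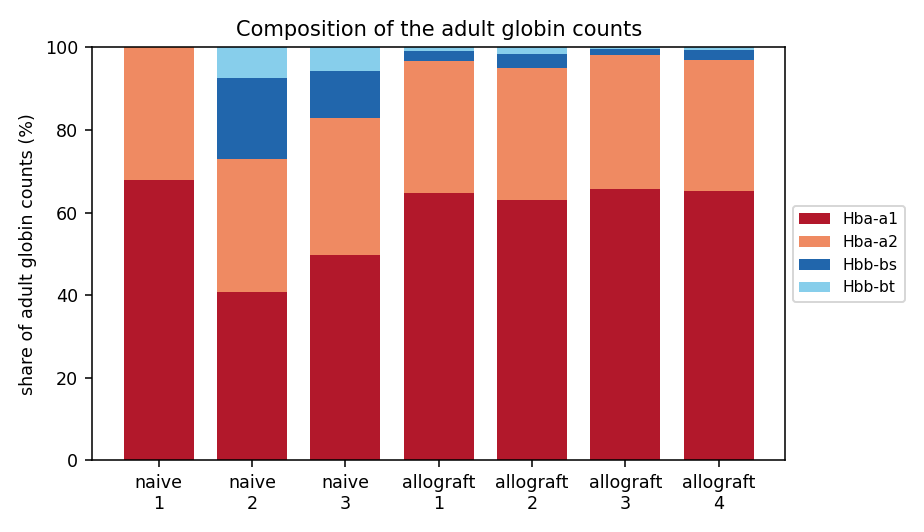
Share of the 4 adult globin genes in the globin counts of each library, in percent, with 1 stacked bar per library. The 2 beta genes together take 0% in naive replicate 1, 27.0% in naive replicate 2, 17.1% in naive replicate 3 and 1.91% to 5.11% in the allografts.

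The summed globins took a small share of each library. The 4 genes together made up 0.0786%, 0.293% and 0.0776% of the counts in naive replicates 1 to 3 and 0.0467% to 0.0595% in the allografts. In CPM this was 786, 2931 and 776 in the naive libraries and 552 ± 59.0 (SD, n = 4) in the allografts. The log2 ratio of the group means was -1.44, and it was -0.50 without naive replicate 2. Naive replicates 1 and 3 thus had nearly equal sums, reached with no beta counts in replicate 1 and with 133 CPM of beta in replicate 3. In pooled bulk RNA, fewer cells of a type and less RNA per cell cannot be told apart.

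The split of the alpha counts between the copies moved with the beta share. Hba-a1 took 68.0% of the alpha counts in naive replicate 1 (95% Wilson interval 67.5% to 68.4%). It took 66.8%, 66.5%, 67.0% and 67.2% in allograft replicates 1 to 4. In naive replicates 2 and 3, the libraries with the highest beta share, it took 55.8% (55.5% to 56.2%) and 60.0% (59.4% to 60.5%). The 5 libraries with a beta share of at most 5.11% thus lay within 66.5% and 68.0%, and their intervals did not reach those of the other two. On the FPKM scale the same split was 63.5% in naive replicate 1, 62.0% to 62.8% in the allografts, and 50.9% and 55.1% in naive replicates 2 and 3. Both shares came from the same globin counts of each library, and no correlation is given because the libraries fell into separate clusters.

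**Figure D3:**
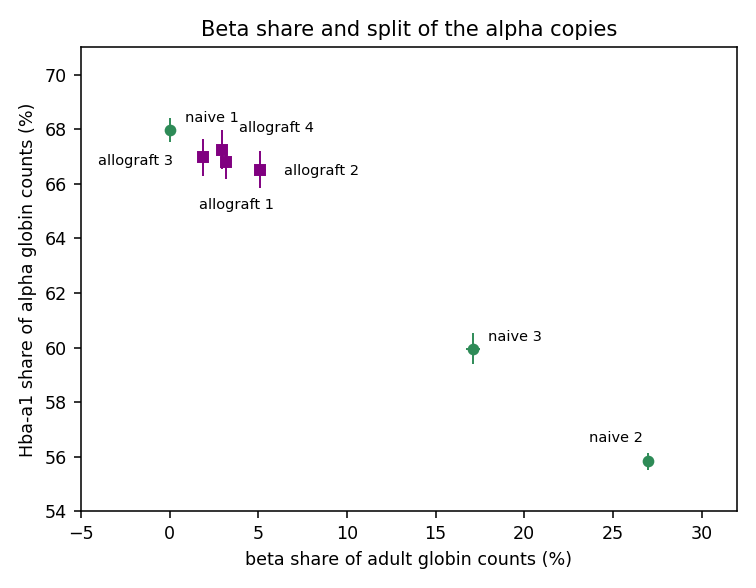
Share of Hba-a1 in the alpha globin counts (vertical axis, percent) against the share of beta in all adult globin counts (horizontal axis, percent), 1 point per library with 95% Wilson intervals of counting error. Naive replicate 1 and the 4 allografts lie between 66.5% and 68.0% on the vertical axis, above naive replicate 3 at 60.0% and naive replicate 2 at 55.8%.

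The split of the beta counts was spread more widely among the allografts (SD 2.63 percentage points) than the split of the alpha counts (SD 0.306). It rested there on 365 to 986 beta counts, against 16622 to 23717 alpha counts, so its counting error was also larger. Of the beta counts, Hbb-bs took 72.6% in naive replicate 2 (72.1% to 73.0%), while naive replicate 3 gave 66.2% (65.0% to 67.4%). In allograft replicates 1 to 4 it took 71.5% (68.2% to 74.5%), 70.2% (67.3% to 73.0%), 75.9% (71.2% to 80.0%) and 74.4% (70.4% to 78.0%). Their mean was 73.0% ± 2.63 (SD, n = 4). The allograft values enclosed naive replicate 2 and lay above naive replicate 3, although the interval of allograft replicate 2 reached that of naive replicate 3. These shares describe how reads fell on the C57BL/6 copies and not which haplotype they came from.

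The remaining erythroid genes were low outside naive replicate 2, as the bars of CPM show. Alas2 (ENSMUSG00000025270, chrX:150547375-150570638) had 0, 249 and 0 counts in naive replicates 1 to 3, or 0, 5.47 and 0 CPM. In allograft replicates 1 to 4 it had 5, 0, 53 and 45 counts, or 0.114, 0, 1.297 and 1.55 CPM. It was above the limit of 3 counts in 1 of 3 naive and 3 of 4 allograft libraries. Its log2 fold change was -1.87 (SE 2.58, edgeR adjusted p = 0.893). The last exon of Alas2 overlaps Apex2 on the opposite strand, and whether strand was used in counting is not given in the sources used here. Apex2 had 594, 82 and 0 counts across naive replicates 1 to 3, and 419, 300, 538 and 123 counts in allograft replicates 1 to 4. Its part in the Alas2 counts was not tested.

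Of the 7 genes, Slc4a1 had the highest ratio of naive replicate 2 to the next library. Slc4a1 (ENSMUSG00000006574, chr11:102348824-102366203) had 0.132, 67.0 and 0 CPM across naive replicates 1 to 3, and 0.114, 2.04, 0 and 0.447 CPM in the allografts. Naive replicate 2 thus held 32.9 times the level of the next library, against 2.24 times for Hba-a1, 3.67 times for Hba-a2 and 6.53 times for Hbb-bs. Its log2 fold change was -5.69 (SE 2.85, edgeR adjusted p = 0.584), with the sign set by that library. Slc4a1 is also expressed by intercalated cells of the kidney collecting duct, and the kidney list was 37.2 times as high in naive replicate 2 as in naive replicate 3, the next highest library. The part of kidney transcripts in the Slc4a1 counts was not tested.

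Klf1 had the lowest allograft mean of the 7 genes in CPM, although in allograft replicate 1 it was above Alas2 and Slc4a1, and in allograft replicate 3 above Slc4a1. Klf1 (ENSMUSG00000054191, chr8:84901928-84905291) had 0, 91 and 0 counts in naive replicates 1 to 3, or 0, 2.00 and 0 CPM. In allograft replicates 1 to 4 it had 12, 0, 34 and 0 counts, or 0.273, 0, 0.832 and 0 CPM. It was detected in 3 of 7 libraries, and its log2 fold change was -1.83 (SE 2.51, edgeR adjusted p = 0.893). Without naive replicate 2, both remaining naive libraries had no count of Alas2 or Klf1, and at most 7 counts of Slc4a1. The fitted values then turned positive for all 3 genes, without passing the threshold (adjusted p = 0.248 for Alas2, 0.553 for Slc4a1 and 0.330 for Klf1).

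**Figure D4:**
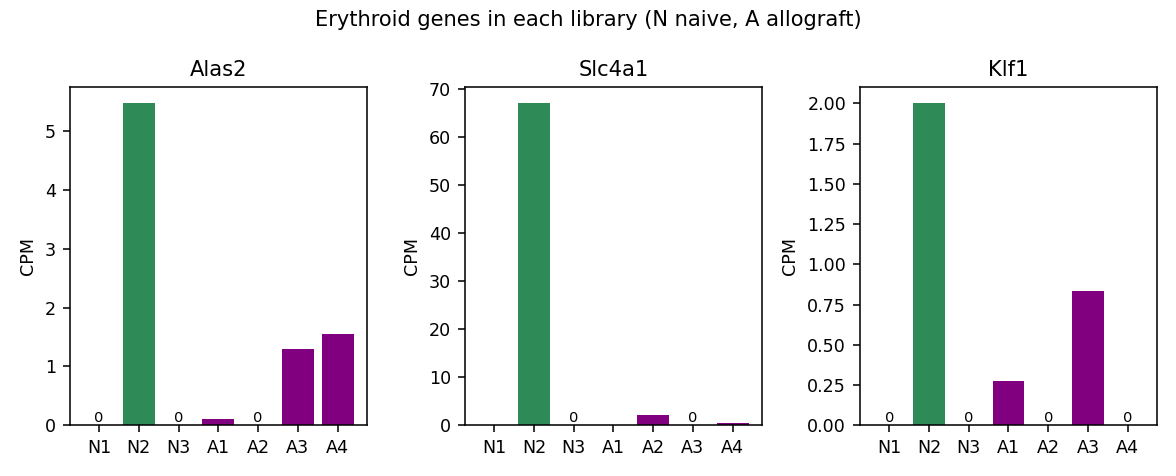
CPM of Alas2, Slc4a1 and Klf1 in each library (linear axes from 0, N naive in green, A allograft in purple), with libraries without a count marked 0. Naive replicate 2 is the highest bar in each panel, at 5.47, 67.0 and 2.00 CPM.

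Outside naive replicate 2, the libraries with the most globin were not those where the erythroid genes were found. Alas2, Slc4a1 and Klf1 were all detected in 2 of 7 libraries, naive replicate 2 and allograft replicate 1. Naive replicate 1 had the second highest alpha sum (786 CPM) with 7 counts of Slc4a1 and none of Alas2, Klf1 or the beta genes. Naive replicate 3 had the second highest beta sum (133 CPM) with no count of Alas2, Slc4a1 or Klf1.

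None of the 7 genes differed between the groups at an adjusted p under 0.05 in edgeR, and 0.0353% of all genes tested did (0.00588% lower and 0.0294% higher). At an unadjusted p under 0.05 there were 3 of 7 (Hba-a1, Hba-a2 and Hbb-bt), against 10.3% of all genes and 3.86% in the lower direction. Without naive replicate 2, 0 of 7 passed at an adjusted p under 0.05, where 3.1% of all genes did (0.0998% lower and 3.0% higher). Then 1 of 7, Hba-a2, had an unadjusted p under 0.05, against 20.2% of all genes and 4.67% in the lower direction. The median log2 fold change of the 7 genes was -1.87, beside -0.01 over all genes, and without naive replicate 2 it was -0.41 beside 0.23. With DESeq2 size factors the median of all genes was -0.21, and Hba-a1 and Hba-a2 were at -1.63 and -2.17. All 7 genes had their highest CPM in naive replicate 2, which was the highest library for 19.7% of all genes tested.

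**Figure D5:**
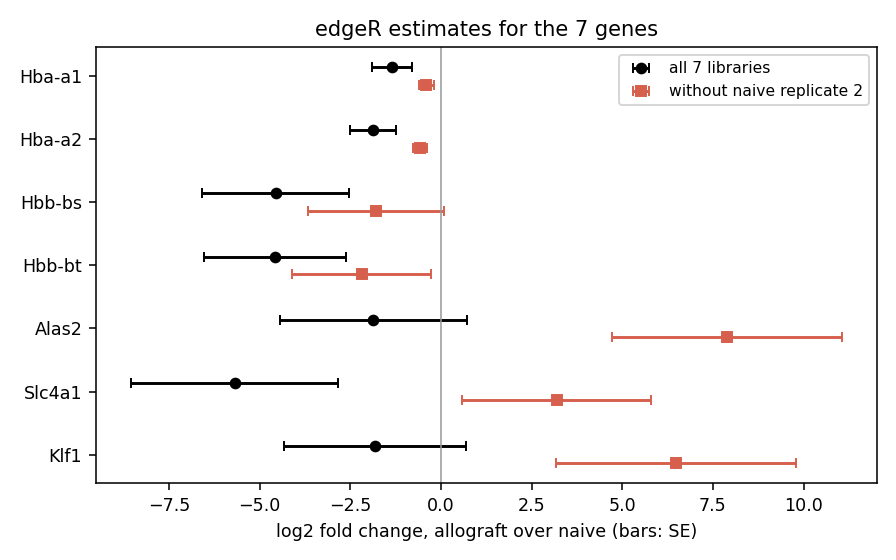
edgeR log2 fold changes of allograft over naive for the 7 genes, with SEs derived from the F statistic. They come from all 7 libraries (black circles) and without naive replicate 2 (red squares). The alpha genes move from -1.35 and -1.87 to -0.41 and -0.58, while Alas2, Slc4a1 and Klf1 change sign. In the fit without naive replicate 2, Alas2 and Klf1 have no naive count, so their positions and bars depend on the prior count of the fit.

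Per unit of length, the 4 globins kept the order Hba-a1, Hba-a2, Hbb-bs and Hbb-bt in each of the 6 libraries with beta counts. In naive replicate 2 the levels were 1353 FPKM for Hba-a1, 1304 for Hba-a2, 686 for Hbb-bs, 283 for Hbb-bt, 12.6 for Slc4a1, 2.08 for Alas2 and 1.19 for Klf1. The alpha genes ranked 38 and 41 among all genes there. In the allografts the mean levels were 380.5 ± 36.6 FPKM for Hba-a1, 230 ± 22.4 for Hba-a2, 15.1 ± 6.78 for Hbb-bs and 6.37 ± 3.56 for Hbb-bt (SD, n = 4). Alas2, Klf1 and Slc4a1 had means of 0.259, 0.153 and 0.113 FPKM there, with SDs as large as the means or larger, so that their order is not fixed. Hba-a1 and Hba-a2 ranked 164 and 270 by their allograft mean, and Hbb-bs 2978.

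The other globin genes of both loci had almost no counts. The embryonic genes Hbb-bh1, Hbb-bh2 and Hbb-y and the pseudogene Hbb-bh0 had no count in any library, and so had the theta globins Hbq1a and Hbq1b next to the alpha genes. The embryonic alpha gene Hba-x had 4 counts, all in allograft replicate 1. Of 17 other genes within 100 kb of the adult beta genes, 15 had no count. Nprl3, whose introns hold the enhancers of the alpha cluster, lies 15.8 kb from Hba-a1. It had 23.8, 3.21 and 96.0 CPM across naive replicates 1 to 3, and 11.6 to 24.0 CPM in the allografts. Its level was thus lowest in the library with the most alpha globin.

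Genes of haem synthesis had counts for 6 to 9 of 9 enzymes in each library. Of 9 enzymes, all 9 were tested and none passed in either direction, with a median log2 fold change of -0.43 (0.02 without naive replicate 2). Alas1, the housekeeping form of the first enzyme, had 21.9, 113 and 0 CPM across naive replicates 1 to 3, and 7.04 to 15.9 CPM in the allografts (log2 fold change -2.56, edgeR adjusted p = 0.730). Fech, which inserts iron into the ring, had 24.9, 83.0 and 1.45 CPM in naive and 17.1 to 24.5 CPM in allograft libraries. Ppox had 28.5, 45.7 and 113 CPM in naive and 48.1 to 59.95 CPM in allograft libraries. The naive libraries enclosed the allografts for all 3 genes.

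Among 11 genes of iron and haem transport, 10 were tested and none passed. Slc25a38, a mitochondrial carrier that supplies glycine for haem synthesis, had 6.43, 13.3 and 8.30 CPM across naive replicates 1 to 3, and 37.6, 33.9, 39.5 and 27.6 CPM in the allografts. Every allograft library was above every naive library, a pattern held by 12.5% of all genes tested. Its log2 fold change was 1.57 (SE 0.527, edgeR adjusted p = 0.341), and it passed without naive replicate 2 (2.18, adjusted p = 0.0466). Aco1 and Abcb10 had log2 fold changes of -1.61 and -0.70 (adjusted p = 0.744 and 0.875). Without naive replicate 2 these were -0.0 and -1.06.

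The red cell membrane list was mostly undetected or at its highest in naive replicate 2. Of 20 genes, 10 were tested and none passed (median log2 fold change -1.81, and 0.30 without naive replicate 2). Epb42, Rhag, Kel and Cldn13, which encode proteins of the red cell membrane, had no count in any library. The dematin gene Dmtn had 89.2 CPM in naive replicate 2, no count in the other naive libraries and 0.522 to 0.808 CPM in the allografts. The water channel gene Aqp1 had 82.6 CPM in naive replicate 2 and at most 2.13 CPM elsewhere. Aqp1 is also a gene of kidney tubules and endothelium, and the part of those cells in its counts was not tested. The glucose transporter gene Slc2a1 had 69.1, 67.9 and 98.2 CPM in naive and 48.9 to 70.4 CPM in allograft libraries. Its log2 fold change was -0.71 (edgeR adjusted p = 0.481), and -0.64 without naive replicate 2.

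The erythroid regulators together reached 123 to 186 CPM in each library. Of 13 genes, 9 were tested and none passed (median log2 fold change -0.72). Without naive replicate 2 the median was 6.49, with several of the genes at no naive count, and again none passed. Gata1 and Gfi1b, which encode transcription factors required for red cell formation, had no count in any library. Ldb1, which encodes an adaptor of transcription factor complexes, had 62.8, 11.4 and 73.0 CPM across naive replicates 1 to 3, and 66.8 to 76.2 CPM in the allografts. Zbtb7a, a repressor gene, had 34.9, 17.5 and 87.3 CPM across the naive libraries and 27.1 to 45.4 CPM in the allografts. Zfpm1, the gene of a GATA cofactor, was also lowest in naive replicate 2 (1.23 CPM), and Myb had no count there or in naive replicate 3. Other regulators went the other way, and 5 of the 13 were highest in naive replicate 2. Among these, Lmo2 had 22.2 CPM there and at most 6.41 CPM elsewhere, and Tal1 had 1.36 CPM there and no count elsewhere. Ldb1, Zbtb7a, Zfpm1, Myb, Lmo2 and Tal1 were named after their values were seen. Sox6 had 71.5 CPM in naive replicate 2, no count in naive replicates 1 and 3 and 0.636 to 3.06 CPM in the allografts. Epor, the erythropoietin receptor gene, had 6.86 CPM in naive replicate 2, 0.909 and 0.538 CPM in allograft replicates 1 and 3 and no count elsewhere. Bcl11a, which encodes a repressor of fetal globin genes and is also a B cell gene, had no count in naive and 0.220 to 3.33 CPM in allograft libraries. It was at least 20.9-fold higher on average, against a floor of 3 counts per library (edgeR adjusted p = 0.217, and 0.123 without naive replicate 2).

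Among the late red cell enzymes, Car2 had 53.9, 2555 and 64.4 CPM across naive replicates 1 to 3, and 36.4, 22.1, 19.3 and 27.6 CPM in the allografts. Car2 encodes a carbonic anhydrase of red cells and of kidney tubules, and the part of kidney transcripts in its counts was not tested. Every allograft library lay below every naive library in CPM, as for 2.15% of all genes tested. The log2 fold change was -5.64 (SE 1.53, edgeR adjusted p = 0.235), and -1.21 (SE 0.356, adjusted p = 0.130) without naive replicate 2. Car1, the red cell carbonic anhydrase, had no count in any library, nor had Trim10 and Trim58. Of 17 genes, 16 had a row, 10 were tested and none passed. Xpo7 and Ube2o had log2 fold changes of 0.92 and -1.15 (adjusted p = 0.662 and 0.744). Without naive replicate 2 these were 1.08 and -1.67. Over the lists of globins, haem synthesis, membrane, regulators and late enzymes, 14 of 67 genes had no count in any library. Of all 55335 gene identifiers, which include pseudogenes, 28138 had a count in any library. The share among protein-coding genes was not taken, so whether genes without a count were more frequent in these lists was not tested.

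The genes most like the globin sum across the 7 libraries were mitochondrial. Over 4232 genes with a mean log2 CPM of at least 5, Pearson's r with the log2 globin sum was 0.991 for mt-Nd1, 0.990 for mt-Co2 and for Gm28661, 0.986 for mt-Cytb and 0.985 for mt-Nd4. Without naive replicate 2 the values were 0.907, 0.881, 0.881, 0.838 and 0.814 over 6 libraries, and without naive replicates 1 and 2 they were 0.858, 0.812, 0.812, 0.773 and 0.863 over 5. Both measures of each point come from 1 library and are scaled by its total count, and the values are a description of these libraries. Gm28661 had nearly the same values as mt-Co2, so that its own counts are uncertain.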

How the data were processed

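Counts per gene and FPKM were deposited by the authors as 2 tables for 7 libraries, and 0 columns were left over. Per the submitters' processing notes, FastQC 0.11.5, STAR 2.5.3a, StringTie 1.3.1c, DESeq2 1.16.1 and build mm10 were used, with no roles given. Per the labels' protocols, RNA was turned into cDNA and amplified with a commercial low-input kit. The deposited FPKM equalled CPM per gene up to 1 factor per library (largest SD 0.00295 over 7340 genes). The deposited counts, in edgeR 4.0.16 (R 4.3.3; quasi-likelihood test, TMM, filterByExpr, Benjamini-Hochberg over all genes, threshold 0.05, no covariate), gave all adjusted p-values. SEs were derived as the absolute log2 fold change divided by the square root of the F statistic. The edgeR test gives none itself. The script was tested on simulated data. With 4 against 3 libraries at a common dispersion of 1.278, estimated from these data, it called 0.0% of genes changed 2-, 8- or 64-fold. With 4 against 2 libraries (0.901) it called 0.0%, 1.49% and 34.9% of them. With 4 against 3 libraries at a lower dispersion of 0.1 it called 17.9%, 100.0% and 100.0%. Each run gave every gene the same dispersion, so its rates are not those of a single gene here. A gene that did not pass is therefore not shown to be unchanged. Alternatives used limma 3.58.1 and DESeq2 1.42.0. Gene lists (196 of 199 symbols matched) were summed as CPM of the total count. In each list, up to 3 genes with the smallest p were named beside the members, and 5 genes by likeness to the globin sum and to Alas2. Members and lists were chosen with earlier results of these data known. Symbols, positions and transcripts came from GENCODE M21 and promoters from RefSeq. Replicate numbers did not pair the libraries (see the closing section).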

Additional observations from a re-analysis of the deposited data

How the results depend on the processing

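With all 7 libraries, 6 genes passed over the whole table (1748 at an unadjusted p under 0.05), none of them among the 7 haemoglobin and erythroid genes. The count was 1244 with DESeq2, 153 and 69 with limma on log2(FPKM + 0.1) and log2(FPKM + 1), and 0 with a replicate block (252 at an unadjusted p under 0.05). Leaving out 1 library gave 0 to 560: 560 when naive replicate 2 was left out, 107 when naive replicate 1 was, and 0 for each of the 4 allograft libraries (848 to 1074 at an unadjusted p under 0.05). The replicate block pairs libraries by number alone, and deviations of same-numbered libraries correlated at 0.026, -0.007 and 0.036, so the numbers are not taken as pairs. Of 105 values of the 7 genes under alternatives, none passed the threshold (adjusted p 0.0676 to 1.0; DESeq2 gave no p for Hba-a2, Slc4a1 and Klf1) and 100 kept their direction. Without naive replicate 2 the log2 fold change was 7.88 for Alas2, 3.19 for Slc4a1 and 6.49 for Klf1, and with the replicate block it was 3.95 for Alas2 and 4.35 for Klf1. Leaving out 1 library gave -1.68 to -0.41 for Hba-a1, -2.23 to -0.58 for Hba-a2, -5.12 to -1.79 for Hbb-bs, -5.14 to -2.19 for Hbb-bt, -2.43 to 7.88 for Alas2, -6.26 to 3.19 for Slc4a1 and -2.38 to 6.49 for Klf1. Some fits without 1 allograft library, and the filter at a mean of 50 counts for Klf1, left Alas2, Slc4a1 or Klf1 untested. The mean share of Hba-a1 in the alpha counts of the allografts was 66.9%, and 62.4% in FPKM. Low counts limit Alas2, Slc4a1 and Klf1, each at 0 in at least 2 libraries.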

Other observations

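Genes of haem breakdown and iron storage were abundant in every library. Their sum was 4750, 6190 and 7137 CPM across naive replicates 1 to 3, and 4679 to 6440 CPM in the allografts, mostly from the ferritin genes Ftl1 and Fth1. Of 13 genes, 10 were tested and none passed with all libraries. Timd4, a phosphatidylserine receptor of resident macrophages, had no count in the naive libraries and 3.48, 2.16, 4.36 and 2.78 CPM in allograft replicates 1 to 4, at least 46.4-fold higher against a floor of 3 counts per library. Its edgeR adjusted p was 0.144, and 0.0433 without naive replicate 2. Spic, the transcription factor gene of macrophages that clear red cells, had no count in any library. Axl and Blvra had log2 fold changes of -1.38 and -0.81 (adjusted p = 0.571 and 0.576). Without naive replicate 2 these were -0.43 and -0.77.

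Platelet genes, the other abundant anucleate blood lineage, were low. The 11 listed genes had a total of 0.226, 21.4 and 0.0459 CPM across naive replicates 1 to 3, and 5.05 to 7.19 CPM in the allografts. Naive replicate 1, with 786 CPM of alpha globin, thus had platelet transcripts from 1 of 11 genes.

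The genes most like Alas2 over the 7 libraries were Txnip, Scnm1, Mrpl48, Sfxn3 and Ifitm2, with Pearson's r of 0.934, 0.923, 0.902, 0.896 and 0.867. Without naive replicate 2 these were 0.899, 0.888, 0.835, 0.835 and 0.764 over 6 libraries. Alas2 was at 0 in 3 of the 7 libraries, so the likeness rests on few counts.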
